A study of Caenorhabditis elegans with 4 samples.

Results

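The region described here lies on chromosome II of Caenorhabditis elegans and holds the neighbouring genes mnk-1 and cdc-48.1, at which peaks of the CEY-2 ChIP-seq lie close together. ChIP-seq recovers chromatin with an antibody and maps the recovered DNA as peaks, each with a summit and a signal value set by the peak caller. All libraries came from whole L4 hermaphrodites of strain OP358, 1 transgenic line with the genotype unc-119(tm4063) III; wgIs358, in which CEY-2 carries a C-terminal GFP-FLAG tag, and the antibody was against GFP. The 4 libraries come from 3 biological replicates, of which replicate 2 has 2 technical libraries that were merged. There was 1 group and no second condition, and no untagged or input sample was analysed here. The labels do not give the promoter that drives the transgene or how many worms were pooled. The labels cite a further protocol document for replicate 2 alone, whose part in any difference between replicates was not tested.

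The peaks were chosen by position, after earlier results of these data were known: every peak whose summit lies from 10 kb before to 10 kb after the span of both genes, chrII:10532421-10573407 in build ce11 (WBcel235), a window of 41.0 kb. It held 5 of the 611 peaks on the thresholded list, which the authors made with the irreproducible discovery rate (IDR), a measure of how well peak ranks recur between replicates. It held 32 of the 25484 peaks of the list from pooled replicates. The pooled and replicate lists are labelled as peaks and background for input to IDR. An entry of these lists, called a peak here, need not be significant. In the lists of replicates 1, 2 and 3 it held 27 of 30000, 36 of 30000 and 31 of 21628 peaks. The lists of replicates 1 and 2 have the same round length, and that of replicate 3 is shorter. Whether lists were cut at a set length is not known here, and densities over the genome follow list length. Over the whole pooled list, 2.40% of peaks were on the IDR list. The region was picked because IDR peaks cluster there, so these counts describe the choice and were not tested. Read numbers are not part of the lists, so library depth is unknown.

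CEY-2 belongs to the Y-box proteins, which bind nucleic acids through a cold shock domain and are best known as partners of messenger RNA, in worms above all in the germ line. cdc-48.1 encodes an AAA ATPase, the worm counterpart of mammalian p97/VCP, which unfolds ubiquitinated proteins and pulls them out of complexes together with cofactors such as UFD-1 and NPL-4. mnk-1 encodes the worm member of the MAP kinase-interacting kinases, which in mammals phosphorylate the cap-binding translation factor eIF4E.

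Both genes are read from the minus strand. cdc-48.1 (WBGene00007352) spans chrII:10560036-10563407 and has 1 annotated transcript of 5 exons. mnk-1 (WBGene00011304) spans chrII:10542421-10555044 and has 4 annotated transcripts. The transcripts R166.5b.1, R166.5b.2 and R166.5b.3 start at 10555044, 10554183 and 10553702 and share an intron of 5833 bp. The short transcript R166.5a.1 starts inside that intron, at 10548923.

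The sequences under the IDR peaks are given from the reference genome of the same build (RefSeq, WBcel235), on the minus strand and 5′ to 3′, because they show what the summits, or for the 3′ UTR peak a nearby word, sit on. The first is the 300 bp before the start of cdc-48.1 (chrII:10563408-10563707), with capitals for the 45 bp between the outermost replicate summits.
cdc-48.1 upstream: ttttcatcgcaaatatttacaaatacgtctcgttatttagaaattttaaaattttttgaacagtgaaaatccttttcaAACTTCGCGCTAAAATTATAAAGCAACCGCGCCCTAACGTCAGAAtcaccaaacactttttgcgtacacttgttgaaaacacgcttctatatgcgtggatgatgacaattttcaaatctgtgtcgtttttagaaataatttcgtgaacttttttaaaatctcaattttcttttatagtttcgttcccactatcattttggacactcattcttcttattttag

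The second lies in the long mnk-1 intron, before the start of R166.5a.1 (chrII:10549257-10549506). Capitals mark the 152 bp between the outermost of the replicate summits nearest to the pooled-list summit. A second replicate 1 summit of this peak, at 10549231, lies outside the printed stretch.
R166.5a.1 upstream: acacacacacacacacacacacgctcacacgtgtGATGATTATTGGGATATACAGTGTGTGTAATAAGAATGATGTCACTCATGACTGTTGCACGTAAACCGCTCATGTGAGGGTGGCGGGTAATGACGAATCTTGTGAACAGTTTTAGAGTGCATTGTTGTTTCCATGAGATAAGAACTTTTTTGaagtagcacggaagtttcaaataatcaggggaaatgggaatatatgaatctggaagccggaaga

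The next 2 are the other peak of that intron (chrII:10552017-10552217) and the peak between the genes (chrII:10557232-10557432), each with 100 bp on either side of the summit. Capitals mark the words GAGAGA and TGATAA, which read TCTCTC and TTATCA on this strand.
mnk-1 long intron: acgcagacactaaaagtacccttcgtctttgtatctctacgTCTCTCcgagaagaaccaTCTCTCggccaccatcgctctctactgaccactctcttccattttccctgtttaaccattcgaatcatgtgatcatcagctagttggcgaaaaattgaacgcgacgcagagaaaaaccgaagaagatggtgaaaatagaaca
between the genes: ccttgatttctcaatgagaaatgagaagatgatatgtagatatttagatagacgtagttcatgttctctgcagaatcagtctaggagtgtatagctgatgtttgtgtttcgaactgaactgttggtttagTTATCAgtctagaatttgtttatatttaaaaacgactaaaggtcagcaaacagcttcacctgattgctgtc

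The last is a site of 30 bp within the interval of the 3′ UTR peak of mnk-1 (chrII:10543501-10543530), which does not reach its summit, with the E-box CACGTG in capitals.
mnk-1 3′ UTR site: agacctgtaaaaCACGTGtacaaaatcaga

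The highest peak of the window stood upstream of cdc-48.1. It spanned chrII:10563390-10563779, and its summit at 10563585 lay 178 bp before the annotated start, between cdc-48.1 and the 3′ end of C06A1.6. Its signal was 107 in the pooled list, at rank 28 of all peaks and rank 8 when mitochondrial peaks are left out. In replicates 1, 2 and 3 the signal was 35.7, 50.4 and 18.1, and the rank within each list was 38, 34 and 77. It thus ranked high in every replicate, although signal values are set within a list and cannot be compared between lists. The replicate summits lay at 10563591, 10563585 and 10563629, within 44 bp of each other.

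The body of cdc-48.1, 3.37 kb long, was not crowded in the way mnk-1 was. It held 0 IDR peaks, 1 pooled-list peak with a signal of 12.3 at rank 9197, and 0, 2 and 1 peaks in replicates 1, 2 and 3. That is 2.97 pooled-list summits per 10 kb, against 2.54 over the nuclear genome, and 0, 5.93 and 2.97 in replicates 1, 2 and 3, against 2.99, 2.99 and 2.15. With so few summits these densities stand on 1 or 2 peaks. The next coding gene upstream, C06A1.6, started 1093 bp from the IDR summit and C06A1.7 1306 bp from it, and neither had a pooled-list summit within 500 bp of its start.

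The body of mnk-1 held 3 of the 5 IDR peaks. The highest of them spanned chrII:10549162-10549551 with its summit at 10549357, in the long intron and 434 bp upstream of the start of R166.5a.1, the annotated internal start. Its signal was 54.5 in the pooled list, at rank 182. The nearest summit in replicates 1, 2 and 3 had a signal of 10.6, 28.8 and 14, at ranks 2589, 154 and 191. Replicates 2 and 3 placed it high in their lists and replicate 1 did not. In replicate 1 the peak was split into 2 summits, at 10549472 and at 10549231, the second with a signal of 12 at rank 1607.

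The other intron peak spanned chrII:10551922-10552311 with its summit at 10552117, also within the long intron and 2927 bp downstream of the mnk-1 start. Its signal was 48.32, at pooled rank 259, and in replicates 1, 2 and 3 it was 21.3, 19.4 and 14.1, at ranks 184, 560 and 183. All replicates ranked it among their top 611. Their summits, at 10552086, 10552114 and 10552081, spread over 33 bp, the narrowest of the 5 peaks.

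The third lay at the other end of the gene. It spanned chrII:10543354-10543743 with its summit at 10543549, in the 3′ UTR of mnk-1 and also inside WBGene00014492, a noncoding RNA gene annotated on the same strand. Its pooled signal was 39.4 at rank 466, the lowest of the 5. In replicates 1, 2 and 3 the signal was 10.8, 18.3 and 8.29, at ranks 2372, 674 and 945, so that none of the replicates had it in its top 611.

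The fifth IDR peak lay between the genes, at chrII:10557137-10557526, with its summit at 10557332. The nearest gene start was that of R166.11, a noncoding RNA gene of 80 bp, and the summit lay 312 bp downstream of it. The start of mnk-1 was 2288 bp away. The pooled signal was 42.2 at rank 377. Replicates 2 and 3 had signals of 18.9 and 12.5 at ranks 605 and 277. The only replicate 1 summit within 200 bp had a signal of 9.48 at rank 3759 and lay 195 bp away. That summit was nearer, at 9 bp, to a second pooled-list summit at 10557536, which is not on the IDR list and had a signal of 27.8 at rank 1196.

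**Figure D1:**
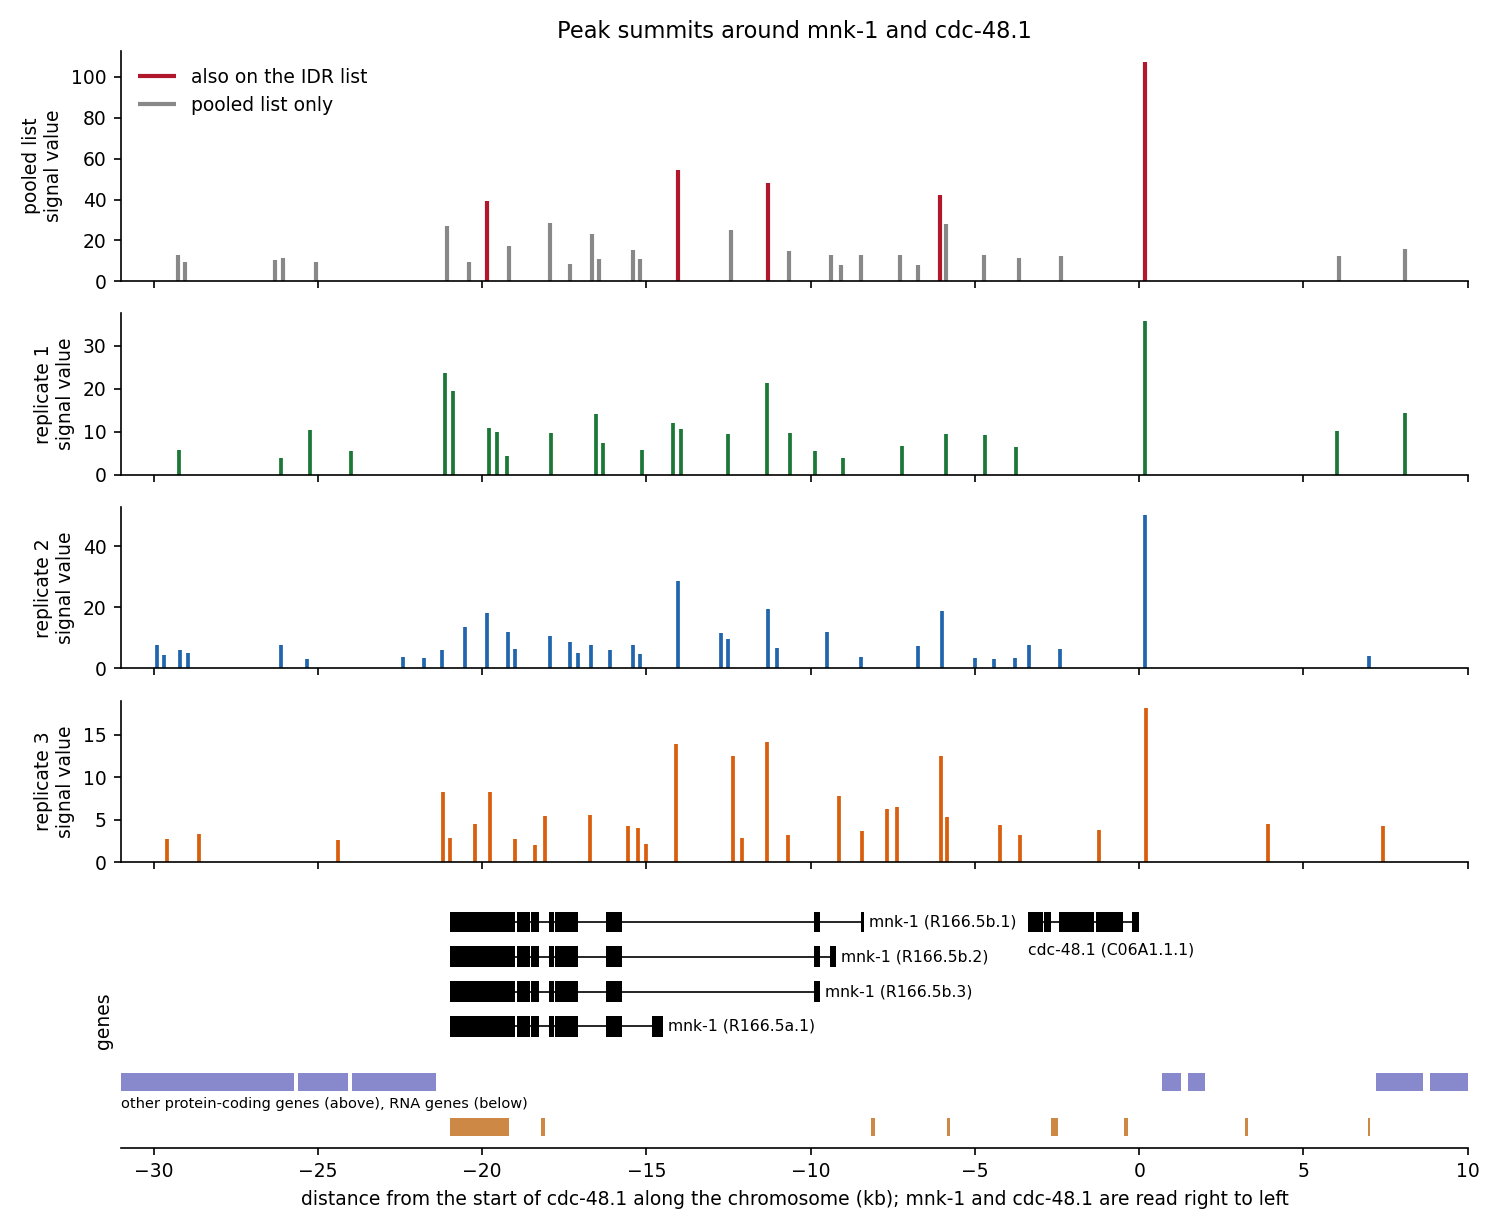
Signal values of all summits in the window, in the pooled list (red where the peak is also on the IDR list) and in the 3 replicate lists, against distance in kb from the start of cdc-48.1, with the annotated transcripts of mnk-1 and cdc-48.1 and the other genes of the window. The tallest stick in every list is the one upstream of cdc-48.1, while the other 4 IDR peaks lie within and beside mnk-1; signal scales differ between panels.

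All 5 IDR peaks had a summit within 200 bp in each of the 3 replicate lists, as did 89.0% of the 611. Of the 5, 2 had such a summit among the top 611 peaks of all 3 replicates, the peak upstream of cdc-48.1 and the one in the long intron at 10552117, against 21.8% of the IDR list. Without replicate 1 the count was 4, since only the 3′ UTR peak then lacked a top summit, and without replicate 2 or 3 it remained at 2. With summits required within 100 bp rather than 200 bp, 3 of the 5 recurred in all replicates, the others being the peaks before R166.5a.1 and between the genes, whose nearest replicate 1 summits lay farther off. All of the IDR peaks have the same capped q-value in the deposited list, which therefore gives no order among them. Each of the 5 had the same rank by signal in the IDR list as in the pooled list. Down to rank 466 the IDR list thus left out no pooled-list peak. How far a place on the IDR list reflects the recurrence of a single peak was not tested.

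**Figure D2:**
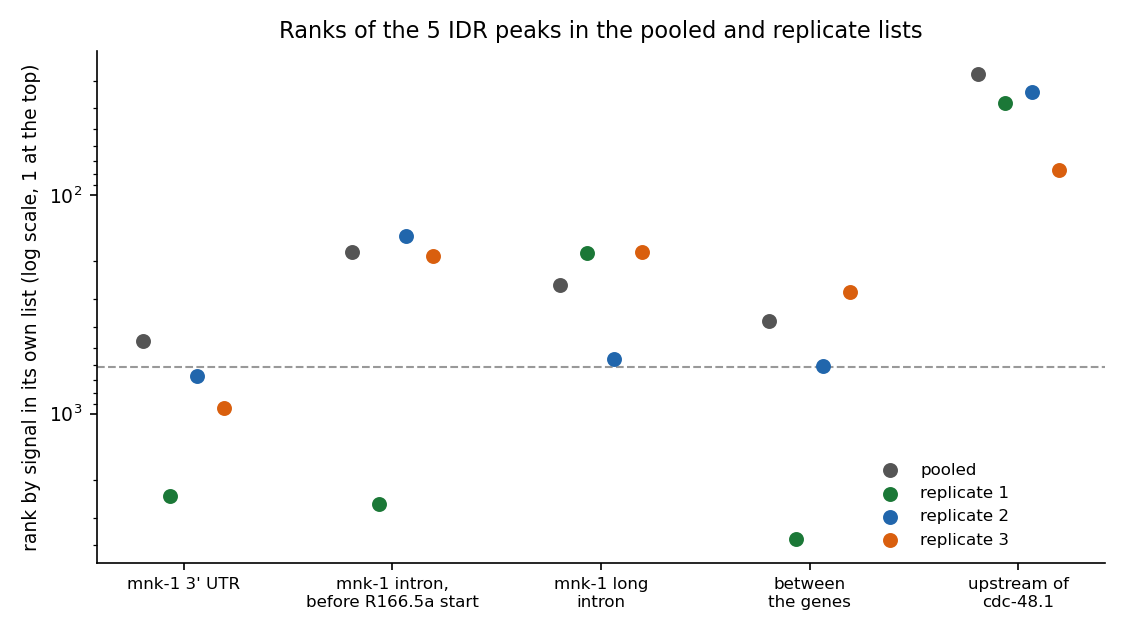
Rank by signal of each of the 5 IDR peaks in the pooled list and of the nearest summit within 200 bp in each replicate list, on a log scale with rank 1 at the top; the dashed line is rank 611. The peak upstream of cdc-48.1 lies between ranks 28 and 77 in all lists, and 3 of the 5 replicate 1 values lie between ranks 2372 and 3759.

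The other 27 pooled-list peaks of the window were weaker. The closest to the threshold had signals of 28.5, 27.8, 27.2 and 24.9, at ranks 1109, 1196, 1273 and 1579, against 39.4 at rank 466 for the lowest IDR peak of the window and 35.9 for the lowest of the whole IDR list. Each of the 32 pooled-list peaks had a summit within 200 bp in at least 1 replicate: 13 in all 3 replicates, 10 in 2 and 9 in 1. Over the whole pooled list 10.6% of peaks had one in all 3. A replicate summit could match more than 1 pooled-list peak. The pooled-list peaks at 10557332 and 10557536, for example, share their replicate 1 and replicate 2 summits. Summits also stand closer together here, with a median gap of 1013 bp in the window and 2137 bp over the nuclear genome, so that a neighbour within 200 bp is more easily met. How far this spacing and the shared matches add to the recurrence was not tested.

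Of the window's other peaks, the one closest to the threshold, with a signal of 28.5 at rank 1109, lay in a coding exon of mnk-1. It was 141 bp upstream of R166.7, a small nucleolar RNA (snoRNA) gene within mnk-1. Small nucleolar RNAs guide the chemical modification of other RNAs. That peak had ranks of 3343, 2470 and 3272 in replicates 1, 2 and 3, close to each other and far below the top 611. The window holds 4 snoRNA genes, of which 3 had a pooled-list summit within 500 bp of the start and 0 had an IDR summit there. Over all 346 nuclear snoRNA genes the shares were 46.8% and 3.76%, and summits of the window stand closer together than in the genome. The IDR summit upstream of cdc-48.1 lay 521 bp from the start of C06A1.9, a snoRNA gene within cdc-48.1.

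Single replicates also held high peaks that did not reach the IDR list. In replicate 1, summits at 10542290 and 10542517, on either side of the 3′ end of mnk-1, had signals of 23.7 and 19.5 at ranks 126 and 254. Their nearest pooled-list summit, at 10542329, had a signal of 27.2 at rank 1273 and lay 333 bp upstream of the start of pro-1. Around it replicate 2 had a summit at rank 9438 and replicate 3 had 2, at ranks 947 and 13464. In replicate 3, a summit at 10551038 in the long intron had a signal of 12.6 at rank 271, where replicates 1 and 2 had ranks 3837 and 3124. Among its top 611 peaks replicate 1 had 4 in the window, replicate 2 had 4 and replicate 3 had 5.

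Of the 5 IDR summits, 2 lay within 500 bp of an annotated gene start, those near cdc-48.1 and R166.11, against 47.0% of all IDR summits. With the start of every annotated transcript counted there were 3, the addition being the peak before R166.5a.1. With protein-coding genes alone, or within 250 bp, there was 1, upstream of cdc-48.1. In exons lay 1 of the 5, the 3′ UTR peak, against 17.7% of all IDR summits, and 0 lay in coding sequence, against 4.58% of all IDR summits. Annotated exons cover 40.6% of the window and coding sequence 27.4%. The pooled-list peaks of the window had 10 of 32 summits in exons, against 23.8% of all pooled-list summits, and 4 in coding sequence, against 13.3%. The nearest gene start to the R166.5a.1 peak, when only 1 start per gene is counted, was that of R166.7 at 4028 bp.

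**Figure D3:**
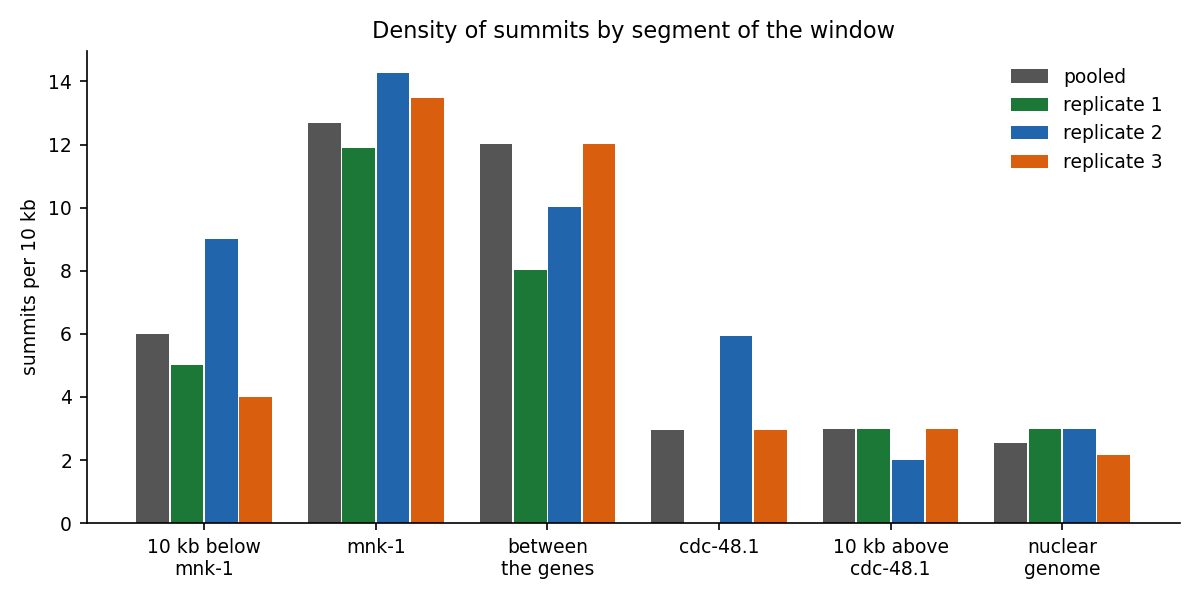
Summits per 10 kb in the pooled list and the 3 replicate lists, for 5 consecutive segments of the window and for the nuclear genome. The bars for mnk-1 stand between 11.9 and 14.3, and those for the nuclear genome between 2.15 and 2.99.

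Of the 5 segments of the window, mnk-1 had the most summits per 10 kb in the pooled list and in each replicate, and the sequence between the genes came next. Within mnk-1, 12.6 kb long, the pooled list had 16 summits, while replicates 1, 2 and 3 had 15, 18 and 17. As a density this came to 12.7 per 10 kb for pooled-list summits, against 2.54 over the nuclear genome. For replicates 1, 2 and 3 it was 11.9, 14.3 and 13.5 within mnk-1, against 2.99, 2.99 and 2.15 over the nuclear genome. These lists include background. The −log10 q-values of the 16 pooled-list entries in mnk-1 ran from 0.0265 to the ceiling of 3.12, so the 16 are not all significant peaks. Between the genes, over 4.99 kb, the pooled list had 6 summits, and replicates 1, 2 and 3 had 4, 5 and 6. The 10 kb below mnk-1 held 6 pooled-list summits, and 5, 9 and 4 from replicates 1, 2 and 3, a density also above that of the genome in each list. The 10 kb above cdc-48.1 held 3 pooled-list summits, with 3, 2 and 3 from replicates 1, 2 and 3, a density near that of the genome. The 5833 bp intron alone held 2 IDR peaks and 6 pooled-list peaks.

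Most other stretches of this length held fewer summits. When the nuclear genome was cut into 2441 consecutive stretches of 40987 bp that do not touch the window, the median was 10 pooled-list summits against 32 in the window, and 1 stretch held as many. In replicate 1, 21 stretches held at least the window's 27. In replicates 2 and 3, 0 held as many as the window's 36 and 31, the highest being 34 and 30. Of the 2441, 1993 held 0 IDR peaks and 2 held 5. The window was placed around a known cluster and the stretches were not, so their counts are a description and no test.

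mnk-1 was 1 of 7 nuclear protein-coding genes, of 19973 (0.0350%), that held 3 or more IDR summits. The others were pkg-2 with 5, let-526 and zfp-1 with 4, and T28B11.1, ifbp-1 and pqn-41 with 3, all chosen after their values were seen. Of 610 coding genes between 10.1 and 15.8 kb, a range set around the length of mnk-1, 587 held 0 IDR summits. Their median was 2 pooled-list summits, against 16 in mnk-1. The gene ZK470.2 held 17 and sms-1 held 16, each with 1 IDR summit, so that a high count of weaker summits was not always joined by several IDR peaks.

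**Figure D4:**
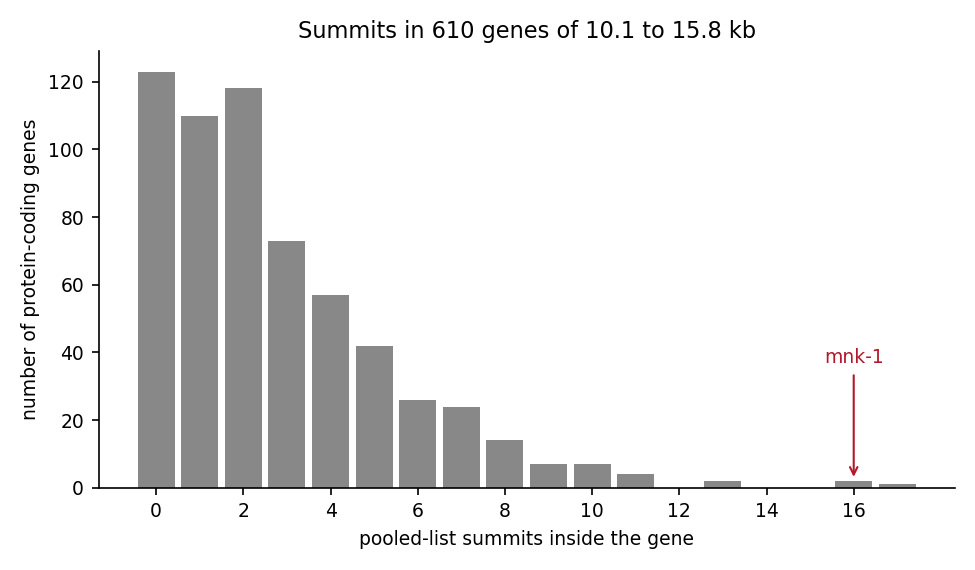
Number of pooled-list summits inside each of the 610 protein-coding genes of 10.1 to 15.8 kb, mnk-1 included; bars count genes. mnk-1 is marked at 16, where the median is 2 and the highest is 17.

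The IDR peaks of the window were spread more widely than those of the other dense clusters. The gaps between neighbouring summits were 5808, 2760, 5215 and 6253 bp. Joined by gaps of up to 10 kb, all 5 formed 1 chain, and there were 3 chains of 5 in the nuclear IDR list, with none longer. With gaps of up to 5 kb the longest chain here had 2 peaks, both in the long intron, and the longest of the genome had 5. At that setting 68 of the 500 nuclear chains, this one included, had at least 2 peaks. The chain at pkg-2 on chromosome IV had 5 summits between 8527768 and 8535164, with a highest signal of 157. The one on the X chromosome had 5 between 6736509 and 6750284, with a highest signal of 95.1. In the window from 10 kb before to 10 kb after pkg-2 and hyl-1, 43.5 kb long, there were 5 IDR peaks and 24 pooled-list peaks, against 5 and 32 here. Of the 586 nuclear IDR peaks, 343 (58.5%) had 0 others within 20 kb.

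The sequence around the summits differed from peak to peak. A search of both strands looked for short words up to 100 bp from each summit. The long intron summit had GAGAGA in 2 copies that do not overlap, with their lowest coordinates 36 and 54 bp from it. The 3′ UTR summit had the E-box CACGTG, with its lowest coordinate 36 bp away. At the summit between the genes the GATA factor word TGATAA was found, 35 bp away by the same measure. Each of these was found at 1 of the 5 summits, and the summits upstream of cdc-48.1 and of R166.5a.1 had none. In windows of the same length GAGAGA occurred at 41.2% of all IDR summits and at 14% of protein-coding gene starts. The E-box occurred at 19% of all IDR summits and at 4.39% of those starts, and the GATA word at 40.6% and at 20.6%. Shares over 5 summits were not compared with these. Within 200 bp the E-box was found at 3 of the 5. The additions were 117 bp from the R166.5a.1 summit, in the lower-case letters before the capitals printed above, and 130 bp from the summit between the genes. The fourth word, CCAAT, is the core of the Y-box for which the protein family is named. It was at 0 of the 5 summits, against 28.8% of all IDR summits, 34.5% of all pooled-list summits and 35.7% of protein-coding gene starts. The printed R166.5a.1 stretch holds 1 copy, in its capitals and just beyond the 100 bp, where it reads ATTGG. A match is a run of letters only, and a word not found is only absent from this window.

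The GC content of these 201 bp ran from 33.8% upstream of cdc-48.1 to 44.8% at the long intron summit, with a median of 39.8%, against 39.3% for all IDR summits and 33.8% for all pooled-list summits. Between 8.96% and 39.3% of the bases were soft-masked as repeats in the reference, the most upstream of cdc-48.1. All words of 36 bases in each of the 5 windows occur once in the genome on either strand.

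Gene lists for both pathways, chosen with results of these data known, held 0 IDR summits, at starts or in gene bodies, beyond those of cdc-48.1 and mnk-1. Of 16 genes for CDC-48 proteins and their cofactors, cdc-48.1 was the only one with an IDR summit within 500 bp of its start, and it is there by choice. Over all nuclear protein-coding genes that share was 0.936%, so that 0 among the other genes of a list this short is near the genome's share and is no result about the pathway. A pooled-list summit within 500 bp was found for 5 of the 16, against 30.4% of coding genes. Of 15 genes for MNK-1, its upstream kinases, and cap-binding and other translation factors, 0 had an IDR summit at the start. A pooled-list summit within 500 bp was found for 9, mnk-1 among them. Over coding genes these shares were 0.936% and 30.4%, and no difference from them was tested. mnk-1, in the list by choice, had its pooled-list summit 106 bp downstream of its start, with a signal of 12.9 at rank 8272. Its −log10 q-value was 0.219, and replicate 1 had no summit within 200 bp of it. The best ranks of the 9 genes of the list ran from 1296 to 24491, so weak entries are counted among them. The highest 3 of that list were ifet-1, which encodes an eIF4E-binding protein, with a signal of 27 at rank 1296, eif-3.B, a subunit of initiation factor eIF3, with 22.4 at rank 2054, and inf-1, the eIF4A helicase, with 20.7 at rank 2528. All 3 summits lay upstream of the start, at 462, 250 and 476 bp.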

How the data were processed

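Peak lists of 4 libraries, from 3 biological replicates in 1 group, were used in build ce11, 5 lists in all. Per the READMEs deposited with the samples, the authors called peaks against a control for each replicate and for the pooled replicates. The technical libraries of replicate 2 were used as 1 alignment. These 4 lists are labelled as peaks and background, and the authors made the IDR list from them. Which aligner and peak caller were used is not given in the sources used here. Column 7 of the deposited lists is the peak caller's signal value, used only within 1 list. Column 9 holds deposited −log10 q-values, which have a ceiling. Nearly all intervals of a list share 1 width, so widths were not compared. Lists in ce10 were not used, because they cannot be set against this annotation.

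A summit is the interval start plus the deposited offset, written 1-based. Genes are those of Ensembl release 115 without piRNA genes, and sequence is RefSeq WBcel235, whose chromosomes hold all intervals and genes. Ranks are by signal. Summits within 200 bp were matched, the nearest where several were, and the top of a replicate list is its 611 highest peaks. The matching and word search were tested on simulated data. No p-value was computed, since position and signal chose the peaks. The members, words and gene lists were chosen with earlier results of these data known. Named were mnk-1, cdc-48.1, genes holding or nearest to an IDR summit, listed pathway genes with an IDR summit at the start or else the highest 3, and further genes chosen after their values were seen. Python 3.11.15 with pandas 2.3.3, numpy 2.4.6 and matplotlib 3.10.9 was used.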

Additional observations from a re-analysis of the deposited data

How the results depend on the processing

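The number of IDR peaks was 5 with flanks of 5 or 20 kb and 4 in the span of the genes alone, and 3 of the 5 were at or above the median signal of the IDR list. The pooled list gave between 23 and 38 peaks over these windows. Recurrence in all replicates fell to 3 of 5 at 100 bp. It was 4 when a replicate summit counted only for its nearest pooled-list summit, a setting chosen after seeing the data. At 500 bp and with any 1 replicate left out it was 5 of 5 (range 5 to 5). These settings could not lower it, because all 5 had already matched in every replicate at 200 bp. Recurrence in the top of all replicates was 1 with the top 300, 2 with the top 1000 and between 2 and 4 with 1 replicate left out. The top 1000 and the leaving out of a replicate could raise this count but not lower it. Summits at a gene start numbered 1 within 250 bp, 1 for protein-coding genes alone, and 3 within 1000 bp or with all transcript starts. In coding sequence there were 0. The chain held 1 peak with gaps of 2 kb and 5 with 10 kb. Within 200 bp CACGTG was at 3 summits and TGATAA at 2, and the counts within 50 bp equalled those within 100 bp. Of 34 settings, 23 kept the count within 1.5 times and 11 did not. Some of the 23 only loosened a criterion and could not lower the count, so this tally is no measure of stability. No paired analysis was possible because all libraries form 1 group. Without counts the error of a single peak is unknown.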
